A study of Homo sapiens with 18 samples.

Results

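Gene desert peaks were the open chromatin regions farthest from genes: all autosomal peaks whose centre lay more than 250 kb outside every protein-coding gene span of RefSeq on GRCh38. Of 71318 peaks in the deposited table, 69410 were autosomal and 4013 met this rule. The rule uses position alone and no measured value. The 4013 peaks lay in 501 deserts, a desert being the gap between 2 neighbouring protein-coding genes, or in 2 cases between a gene and the chromosome end, with a median gap of 1109.1 kb. They lay 250.1 to 4840.8 kb from the nearest protein-coding gene, with a median of 475.6 kb. Receptor gene segments are not annotated as protein-coding, so 30 of the peaks lay inside antigen receptor loci, 24 of them in TRA, 4 in IGH and 2 in IGK.

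Open chromatin was mapped by Omni-ATAC-seq, which uses a transposase that inserts adapters into accessible DNA, in Raji cells, an established B-cell line from a Burkitt lymphoma. All 18 samples carried the genotype label Smarca4+/+, and the series concerns degradation of the SMARCA4 protein through a degron that responds to auxin. Samples were labelled GFP high or GFP low at 24, 48 and 72 h, with 3 replicates of each. What GFP reports, whether any group lacked auxin and which GFP level had less SMARCA4 are not in the labels, so changes are described as GFP low against GFP high.

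SMARCA4, also called BRG1, is an ATPase of the BAF complexes, which slide and evict nucleosomes and are known for keeping distal enhancers open. Gene deserts are long stretches without protein-coding genes, and some of them hold enhancers that act over large distances on the gene at their edge, often a regulator of development or growth. Long non-coding RNA genes are the main annotated transcripts in them.

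Of the desert peaks, 1175 lay inside an annotated lncRNA gene, 56 inside another non-coding gene or pseudogene and 2782 outside every RefSeq gene. The RefSeq windows used for sequence run from 250 bases before to 50 bases after a gene's start. They overlapped 48 desert peaks in 50 pairs of window and peak, all at lncRNA genes. The LINC00877 window overlapped neighbouring desert peaks and was counted with each. The 6 windows below belong to the 3 lower and the 3 higher desert peaks with the smallest adjusted p among those that overlapped a window by at least 100 bases. They are RefSeq sequence of GRCh38.p14, written 5′ to 3′ on the gene's strand, and show desert DNA at starts whose peaks changed in each direction. Of the 300 bases of each window, 143 of LINC02144, 255 of LOC105378885 and 276 of LOC107985242 lay inside the peak, and all bases of the other 3. Capitals mark the matches to the 8 motifs searched, on either strand.
LOC107985242, chr1:194289658-194289957, minus strand: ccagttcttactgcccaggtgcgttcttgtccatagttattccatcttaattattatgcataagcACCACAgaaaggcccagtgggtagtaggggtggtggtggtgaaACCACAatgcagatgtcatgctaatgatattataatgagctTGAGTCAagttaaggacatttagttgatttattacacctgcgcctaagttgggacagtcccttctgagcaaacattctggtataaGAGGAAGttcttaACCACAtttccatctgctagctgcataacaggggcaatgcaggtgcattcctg
LINC02144, chr5:87733027-87733326, minus strand: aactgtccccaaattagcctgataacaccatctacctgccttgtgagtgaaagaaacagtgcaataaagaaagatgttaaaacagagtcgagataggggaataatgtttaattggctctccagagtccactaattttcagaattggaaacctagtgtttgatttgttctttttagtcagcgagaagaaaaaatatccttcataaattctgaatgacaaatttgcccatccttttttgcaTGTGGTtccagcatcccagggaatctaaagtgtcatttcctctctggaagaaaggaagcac
LOC105378885, chr1:106073107-106073406, minus strand: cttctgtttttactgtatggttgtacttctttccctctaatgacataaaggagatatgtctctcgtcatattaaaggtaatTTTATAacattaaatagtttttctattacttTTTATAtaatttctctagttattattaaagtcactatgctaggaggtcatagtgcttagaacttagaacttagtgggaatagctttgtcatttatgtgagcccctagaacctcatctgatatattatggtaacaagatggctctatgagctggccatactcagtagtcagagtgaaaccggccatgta
LINC02552, chr11:104609253-104609552, minus strand: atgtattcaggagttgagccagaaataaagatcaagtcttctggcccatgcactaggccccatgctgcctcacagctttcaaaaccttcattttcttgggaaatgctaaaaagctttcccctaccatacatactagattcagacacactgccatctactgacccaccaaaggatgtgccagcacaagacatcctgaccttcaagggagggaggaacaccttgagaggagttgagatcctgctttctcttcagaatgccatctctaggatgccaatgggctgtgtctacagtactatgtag
LINC02359, chr12:126093893-126094192, plus strand: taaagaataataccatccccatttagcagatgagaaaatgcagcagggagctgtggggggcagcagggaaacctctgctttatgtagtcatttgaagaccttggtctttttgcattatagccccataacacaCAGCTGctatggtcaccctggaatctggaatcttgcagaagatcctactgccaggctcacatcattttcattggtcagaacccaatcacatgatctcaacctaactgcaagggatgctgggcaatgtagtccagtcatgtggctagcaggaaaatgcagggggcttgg
PURPL, chr5:27472042-27472341, plus strand: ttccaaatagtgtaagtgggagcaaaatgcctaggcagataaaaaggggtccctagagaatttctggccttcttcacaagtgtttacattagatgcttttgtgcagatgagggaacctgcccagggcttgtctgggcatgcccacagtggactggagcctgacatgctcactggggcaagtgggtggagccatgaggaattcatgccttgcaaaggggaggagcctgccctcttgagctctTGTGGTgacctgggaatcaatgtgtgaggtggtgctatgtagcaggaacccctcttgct

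The motifs were the octamer ATGCAAAT, the PU.1 and ETS motif GAGGAAG, the E-box CAGCTG, the RUNX motif TGTGGT, the AP-1 motif TGANTCA, the EBF motif CCCNNGGG, the MEF2 motif CTANNNNTAG and the TATA box TATAAA. The PU.1 and ETS letters hold the core that all ETS factors share and do not separate them. In the LOC107985242 window, 5 matches were found, namely 3 RUNX, 1 AP-1 and 1 PU.1 and ETS match. PURPL had 1 RUNX match and LINC02144 1 that lay outside its peak, LOC105378885 had 2 TATA box matches, LINC02359 had 1 E-box match and LINC02552 had no match. Over the 50 pairs of window and desert peak, the RUNX motif was in 14 (28%), against 13.1% of all 34943 windows and 16.2% of the 12894 lncRNA windows. The E-box was in 14 (28%), against 17.9% of all and 17.8% of lncRNA windows. That count holds the LINC00877 window with each of its peaks and 2 LOC105370290 windows that overlap almost fully. AP-1 letters were in 7 (14%), against 7.72% and 10.4%, and the TATA box in 10 (20%), against 11.6% and 15.1%. PU.1 and ETS letters were in 7 (14%), against 13.6% and 12.3%, and EBF letters in 4 (8%), against 19.0% and 14.6%. MEF2 letters were in 2 (4%), against 2.74% and 3.47%, and the octamer in 1 (2%), against 1.77% and 1.97%. The median GC content was 46.4% at desert peaks, 50% in lncRNA windows and 58.7% in all windows. These are matches of letters, described without a test.

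The 6 peaks at these starts differed widely in level. The peak at LOC107985242 had 52.8, 46.6 and 52.8 CPM (counts scaled to the library's size) in GFP high cells at 24, 48 and 72 h, and 22.6, 33.5 and 35.1 CPM in GFP low cells. The groups did not overlap, with a log2 change of -0.76 (SE 0.10, edgeR quasi-likelihood adjusted p 6.51e-06). At PURPL, a lncRNA known as a p53 target, the peak had 67.7, 66.3 and 67.3 CPM in GFP high cells and 74.1, 81.5 and 77.8 CPM in GFP low cells. This peak rose slightly, by 0.21 on the log2 scale (SE 0.06, edgeR adjusted p 0.00816), again without overlap. It lost that call by DESeq2 (adjusted p 0.0666) and with loess offsets, which scale by abundance, at a log2 change of 0.01. Without the 48 h or the 72 h pair of libraries the adjusted p was 0.0693 and 0.127. LINC02144 fell from a mean of 11.8 to 6.17 CPM, LOC105378885 fell from 6.18 to 2.79 CPM, LINC02552 rose from 7.12 to 10.4 CPM and LINC02359 rose from 2.77 to 4.56 CPM. Of the 48 desert peaks at RefSeq starts, 9 (18.8%) were called lower and 7 (14.6%) higher, with a median level of 8.54 CPM. Of all peaks 25.4% were called lower and 13.4% higher, and of all desert peaks 34.5% and 7.60%.

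The 18 columns held 7106939 to 11171849 counts each. Their headers give a GFP level, a D number read as time and a V number from V0 to V2 that was not matched to a replicate. Within a GFP level and time, columns differed by 1.78 to 1.82 times the counting variance over 18 pairs, against 2.21 to 3.49 between times. The 3 columns of a group were therefore counted as 1 library, which left 6 libraries of 22908652 to 29790483 counts, 3 per GFP level over the times. At gene ends, 10 of 12 B-cell marker genes had a peak, as did 5 of 9 T-cell, 1 of 6 myeloid and 2 of 6 epithelial and stromal markers. The median level of the marked peaks was 26.9 CPM for B-cell genes and 4.81 CPM for T-cell genes. By its strongest peak, 1 of the 10 B-cell genes was called higher in GFP low cells and none lower, and of the 5 T-cell genes CD3D, CD2 and CD28 were called lower and BCL11B higher. The summed level was 420.0 to 439.0 CPM in GFP high and 436.0 to 460.0 CPM in GFP low libraries for the B-cell genes, and 76.6 to 80.0 and 57.9 to 68.4 CPM for the T-cell genes. The part of these levels in the desert results was not tested.

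Desert peaks were weak. Their level had a median of 5.10 CPM and a range of 1.27 to 130.0 CPM, against a median of 7.59 CPM over all peaks. The mean count per library ran from 33.5 to 3540, with a median of 138, and the filter on low counts removed no peak. All 4013 were therefore tested.

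Desert peaks took a smaller share of the counts in each GFP low library than in any GFP high library. The share was 3.34%, 3.05% and 3.02% in GFP high cells at 24, 48 and 72 h, and 2.59%, 2.89% and 2.61% in GFP low cells. The 48 h pair was closest. In bulk libraries, fewer cells with a site open and less opening per cell cannot be told apart. The mean was 3.14% ± 0.178 (SD, n = 3) against 2.70% ± 0.169 (SD, n = 3), a difference of -0.442 percentage points (two-sided exact permutation p 0.1, the smallest that 3 against 3 libraries can give). Each n counts the 3 times, so the SD is a spread over times. Here and below, the permutation shuffled all 6 libraries and did not keep their pairing by time. The median desert peak had 5.85, 5.29 and 5.22 CPM in GFP high cells and 4.68, 5.12 and 4.65 CPM in GFP low cells. Measures over whole libraries moved with GFP level too. Gene-end peaks took 38.6% to 40.1% of counts in GFP high and 43.4% to 44.8% in GFP low libraries, and the 1000 strongest peaks 9.41% to 9.71% and 10.6% to 11%. The part of these shifts in the desert result was not tested. Against the other intergenic peaks, the desert median differed by -0.223, -0.296 and -0.322 log2 units in GFP high and by -0.378, -0.253 and -0.348 in GFP low libraries. These values overlapped, with a difference of -0.046 (exact permutation p 0.4).

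**Figure D1:**
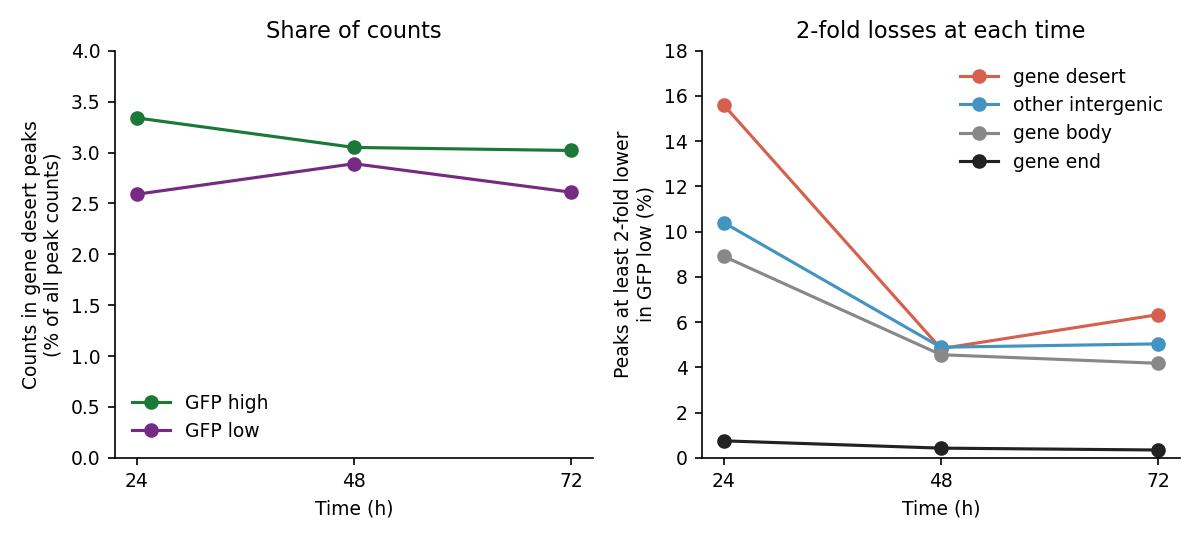
The left panel plots the percent of all peak counts in the 4013 desert peaks against time in h, 1 point per library; the 3 GFP low points, 2.59% to 2.89%, lie below the 3 GFP high points, 3.02% to 3.34%. The right panel plots the percent of peaks of each class that were at least 2-fold lower in GFP low cells at each time; the desert share was 15.6% at 24 h and dropped to 4.83% and 6.33% at the later times.

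Over the 3 times, 1385 of 4013 desert peaks fell in GFP low cells (34.5%), where 25.4% of all 71318 peaks were called lower. In the other direction 305 rose (7.60%), where 13.4% of all peaks were called higher. Calls were those of edgeR's quasi-likelihood test with time as a term, at an adjusted p under 0.05 over all peaks. The median log2 change was -0.10 in desert peaks and 0.03 over all peaks, and 80% of desert peaks lay between -0.90 and 0.35. Falls were deeper than rises: the median was -0.72 among the 1385 and 0.45 among the 305. A fall of at least 2-fold was called at 276 desert peaks and a rise of that size at none. Over all 71318 peaks such falls were called at 2855 and such rises at 5, so rises of that size were rare everywhere. The split depends on the scaling, with 984 lower and 62 higher by DESeq2, and 1148 lower and 617 higher with loess offsets, where the desert median was 0.00. With loess offsets the rises were 15.4% of desert peaks beside 13.2% of all peaks, so that the order of those shares was the other way round. Without the 48 h pair 119 rose (2.97%, against 12.2% of all peaks). Without the 72 h pair 107 rose (2.67%), but only 3.51% of all peaks did. Without the 24 h pair 433 rose (10.8%, against 13.0% of all peaks).

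The 3 GFP low libraries were all below the 3 GFP high libraries at 1309 desert peaks (32.6%, against 25.1% of all peaks) and all above at 560 (14%, against 20.8%). By position, 30.2% of the 21958 other intergenic peaks fell, 30.5% of the 30145 peaks inside gene bodies and 4.31% of the 13294 gene-end peaks. The shares that rose were 9.10%, 7.91% and 34.2%, but 15.6%, 12.3% and 9.67% with loess offsets, where the desert share of 15.4% was above that of gene ends. Desert peaks were nearer to gene bodies and other intergenic peaks than to gene ends. No test of these differences between classes was made.

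The share of desert peaks called lower went with the level of the peak. All peaks were put in 10 bins of equal size by level, bin 1 the weakest. In bins 1 to 6, 31.7% of 3289 desert peaks fell, beside 29.8% of other intergenic and 31.7% of gene-body peaks. In bins 7 to 10, 47.5% of 724 desert peaks fell, beside 31.3% of other intergenic, 28.0% of gene-body and 1.92% of gene-end peaks. In bin 9 the share was 56.2% of desert and 32.8% of other intergenic peaks. The called falls were not deeper at stronger peaks. Falls of at least 2-fold were called at 248 of the 3289 weaker and 28 of the 724 stronger desert peaks. The median called fall was -0.76 and -0.58. Over all desert peaks, called or not, the median log2 change was -0.07 in bins 1 to 6 and -0.24 in bins 7 to 10. For other intergenic peaks these medians were -0.03 and 0.00. Stronger peaks give the test more counts, and the part of this in the shares and in the size of called falls was not tested. In the other direction, desert peaks of bins 7 to 10 rose in 9.53%, other intergenic peaks in 14.5% and gene-end peaks in 41.0%. With loess offsets these were 12.4%, 13.8% and 9.58%, so that the order of desert and gene-end peaks turned, while 46.5% of desert and 32.4% of other intergenic peaks of these bins fell.

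**Figure D2:**
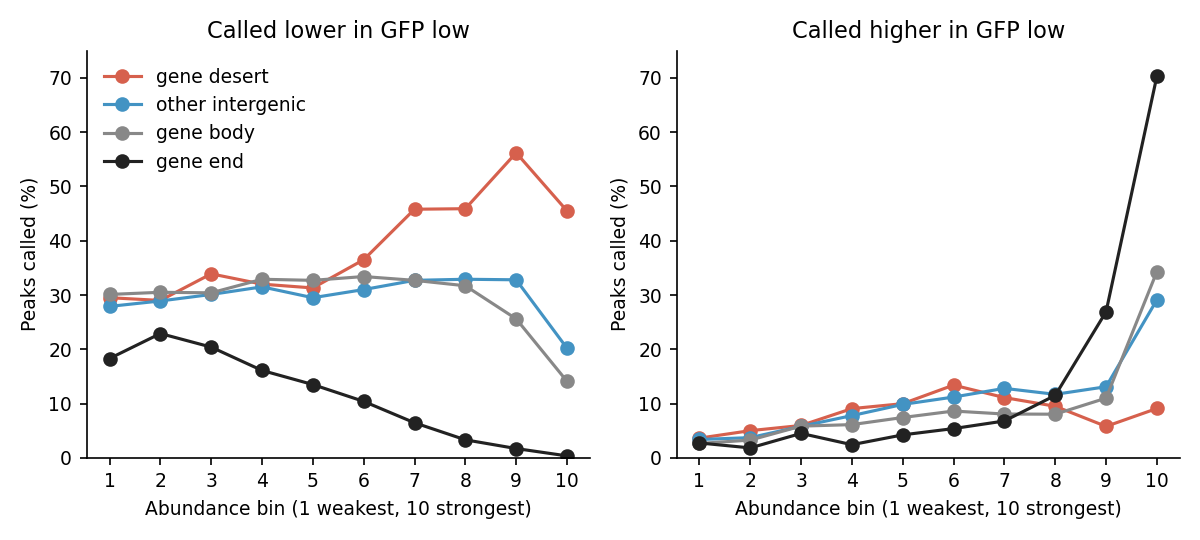
Percent of peaks called lower (left) and higher (right) in GFP low cells, by edgeR, in each of 10 abundance bins for 4 position classes. The desert line reaches 56.2% lower in bin 9, where other intergenic peaks are at 32.8%.

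Beyond the 250 kb limit, the share of falls differed little with distance. Between 250 and 300 kb 34.7% of 593 peaks fell, between 500 and 750 kb 33.3% of 923, and beyond 1500 kb 39.4% of 99. Just inside the limit, peaks 250.15, 250.16 and 250.19 kb from MPDZ, LOC105377015 and OR4E1 had log2 changes of -0.83, -0.68 and -0.48. Just outside, peaks 249.77, 249.66 and 249.60 kb from JRKL, MAP3K1 and POU5F1B had 0.03, -0.57 and -0.19. Inside lncRNA genes 36.1% of 1175 fell, and outside every RefSeq gene 34.1% of 2782. The 112 desert peaks over 250 kb from any RefSeq gene fell in 34.8%. In the receptor loci 3 of 24 TRA peaks fell and 1 rose, and none of the 4 IGH and 2 IGK peaks was called.

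The share of falls also went with crowding, described here without a test. With no other desert peak within 50 kb, 27.6% of 1237 fell and 9.94% rose. With 4 or more within 50 kb, 44.4% of 579 fell and 4.49% rose. The median level moved the same way, from 4.48 to 6.51 CPM, and its part in this was not tested. Nearby peaks had more similar changes than distant ones: over 952 pairs up to 10 kb apart in a desert, log2 changes correlated at r = 0.37, over 2595 pairs at 10 to 50 kb at 0.18, over 8422 pairs at 50 to 250 kb at 0.13 and over 12077 pairs at 250 to 1000 kb at 0.02. All pairs share the same 6 libraries and peaks enter several pairs, so these are descriptions.

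The 8 largest falls, at most 2 a desert, had log2 changes of -1.61 to -1.77, at peaks of 2.60 to 7.08 CPM. The first lay 294.8 kb from TMEM182 in the desert that ends at POU3F3, a neural POU-domain transcription factor, at chr2:103138389-103138889 outside any RefSeq gene. It had 12.2, 7.80 and 8.23 CPM in GFP high and 3.36, 2.92 and 1.97 CPM in GFP low cells, with no overlap. The log2 change amounted to -1.77 (SE 0.16, edgeR adjusted p 5.01e-08). Inside the lncRNA LINC02147 near DTWD2, at chr5:118236055-118236555, values were 14.1, 10.6 and 7.95 against 3.55, 3.59 and 2.65 CPM. GFP high values there were highest at 24 h and lowest at 72 h, all above GFP low, and the log2 change was -1.72 (SE 0.15). Between TLE4 and TLE1, which encode Groucho corepressors, the peak at chr9:80134396-80134896 had 9.42, 6.61 and 5.54 against 2.12, 2.63 and 2.17 CPM, a log2 change of -1.61 (SE 0.19). The others lay between GRXCR1 and KCTD8 (-1.74), OSTF1 and PCSK5 (-1.68), CYRIA and RAD51AP2 (-1.63), and at 2 places between MYC and GSDMC (-1.70 and -1.62). None of these 8 calls was lost in any alternative fit. They were picked as the largest called falls in the same libraries, so this is no independent check.

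The 8 largest rises were smaller and all at weak peaks, with mean levels of 2.36 to 5.17 CPM. The largest, at chr10:63935623-63936123 between REEP3 and the alpha-catenin gene CTNNA3, had 2.71, 2.30 and 1.97 CPM in GFP high and 4.50, 4.69 and 3.77 CPM in GFP low cells. The log2 change amounted to 0.90 (SE 0.20, edgeR adjusted p 0.00104). Between CD83, a surface marker of activated B and dendritic cells, and JARID2, a Polycomb cofactor, the peak at chr6:14799800-14800300 had 3.27, 2.61 and 2.97 against 6.0, 5.48 and 4.55 CPM, a log2 change of 0.86 (SE 0.18). Inside the lncRNA DIRC3, at chr2:217510671-217511171, values were 4.13, 3.59 and 3.37 against 6.80, 6.36 and 5.91 CPM, a log2 change of 0.78 (SE 0.16). The groups did not overlap at any of these 8 peaks. The other 5 had log2 changes of 0.86 (TRIB1 to LRATD2), 0.82 (SLITRK5 to GPC5), 0.81 (PTPRU to MATN1), 0.76 (PAX1 to FOXA2) and 0.75 (CA10 to KIF2B). By DESeq2 the adjusted p was 0.0531 at SLITRK5 to GPC5 and 0.0592 at PAX1 to FOXA2. The calls at TRIB1 to LRATD2, SLITRK5 to GPC5 and PAX1 to FOXA2 were lost without the 48 h pair (adjusted p 0.0761, 0.0880 and 0.0780) and that at CA10 to KIF2B without the 72 h pair (0.0510). At PAX1 to FOXA2 it was also lost without the columns numbered V0 (0.0771).

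**Figure D3:**
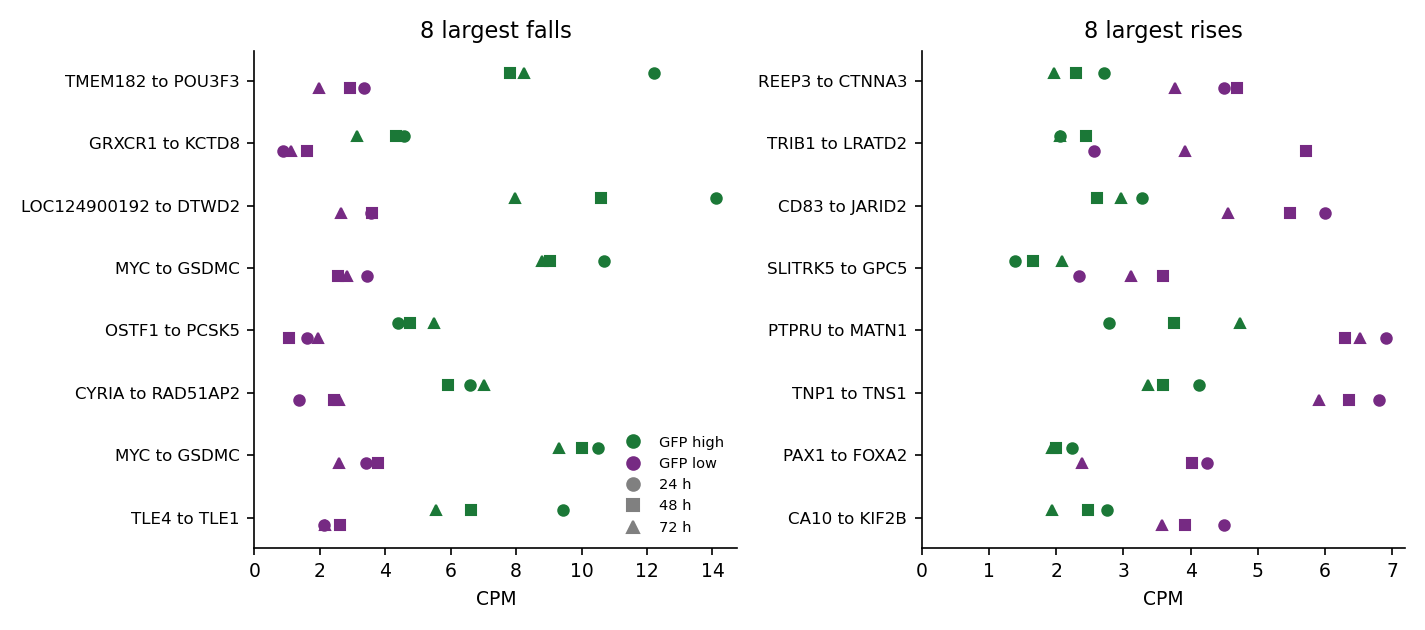
CPM in each of the 6 libraries at the 8 desert peaks with the largest falls (left) and the 8 with the largest rises (right), each row named by the genes that flank its desert. GFP low points lie left of all GFP high points on the left, as in 1.97 to 3.36 against 7.80 to 12.2 CPM between TMEM182 and POU3F3, and right of them on the right.

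The 6 most abundant desert peaks included no fall and 2 rises. The top one, at chr7:25862114-25862614 between NPVF and NFE2L3, the latter a bZIP transcription factor, had 114.0, 121.0 and 120.0 CPM in GFP high and 141.0, 139.0 and 146.0 CPM in GFP low cells. It rose by 0.26 on the log2 scale (SE 0.05, edgeR adjusted p 0.00015), without overlap. With loess offsets its log2 change was -0.01. The second, between TENM4 and FAM181B at chr11:81869591-81870091, had 130.0, 120.0 and 120.0 against 122.0, 137.0 and 125.0 CPM, which overlap, with a log2 change of 0.05. This turned to -0.22 with loess offsets, and without the 24 h pair the peak was called higher (0.14). A pair of peaks less than 1 kb apart between MAT2B and TENM2, at 94.3 and 70.9 CPM, had log2 changes of -0.07 and 0.00. With loess offsets they were called lower, at -0.31 and -0.20. The peak between ZNF608 and GRAMD2B, at 77.8 CPM, had a log2 change of 0.14 that did not pass the test (adjusted p 0.0783) but did without the 24 h pair (0.00563). The PURPL start, the other rise, is described above.

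The share of falls varied between deserts. Among the 150 deserts with at least 10 peaks, which held 2663 of them, the share that fell ran from 0% to 92.3%, with a median of 34.9% and quartiles of 26.9% and 46.0%. At least 60% of peaks fell in 8 of these deserts, and in 10 more peaks rose than fell. The summed CPM of a desert's peaks was lower in every GFP low than in every GFP high library in 84 of the 150 and higher in 4. Such sums were not made for sets of other peaks, so it is not shown whether this split is particular to deserts.

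**Figure D4:**
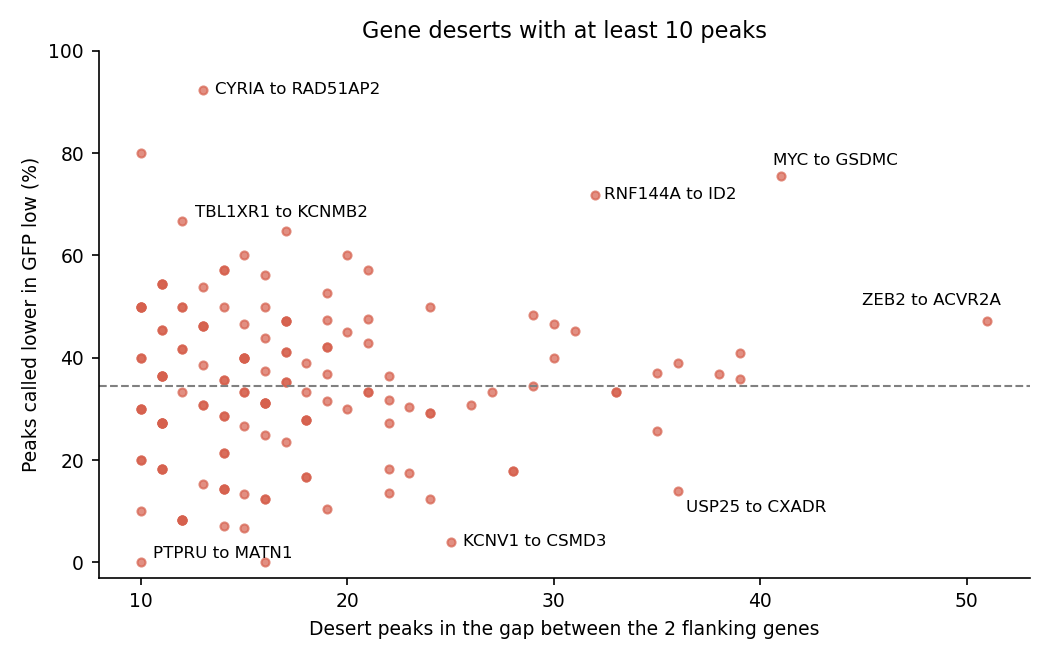
Percent of peaks called lower in GFP low cells against the number of peaks, for the 150 deserts with at least 10 peaks, 1 point each; the dashed line is the 34.5% of all desert peaks. MYC to GSDMC and RNF144A to ID2 stand out among the larger deserts, at 75.6% of 41 and 71.9% of 32.

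The desert downstream of MYC, the growth-driving transcription factor that Burkitt lymphomas overexpress, held 41 peaks at chr8:127993060-129394344. Of these 31 fell and none rose, with a median log2 change of -0.57. Their summed level was 537.0, 501.0 and 474.0 CPM in GFP high and 377.0, 373.0 and 340.0 CPM in GFP low cells, a ratio of 0.721. At all 3 times 34 of the 41 were lower. The deepest fall, 408.5 kb beyond the end of MYC at chr8:128151163-128151663, had 10.7, 9.02 and 8.80 against 3.44, 2.56 and 2.82 CPM. The change was -1.70 on the log2 scale (SE 0.15, edgeR adjusted p 3.86e-08). A strong peak 524.7 kb from MYC had 60.6, 55.3 and 53.9 against 43.5, 39.4 and 36.1 CPM, a log2 change of -0.52 (SE 0.07).

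Within that desert, 11 peaks lay in the lncRNA PVT1 and 2 in the lncRNA CCDC26. The strongest of all, in PVT1 at chr8:128063893-128064393, had 63.5, 64.0 and 66.2 CPM in GFP high and 63.0, 65.7 and 66.0 CPM in GFP low cells. The groups overlapped, at a log2 change of 0.01 (SE 0.06, adjusted p 0.930), which became -0.18 with loess offsets (adjusted p 0.0242). Its PVT1 neighbours at 306.4 and 307.9 kb from MYC fell by 0.46 and 0.75 on the log2 scale. Both CCDC26 peaks fell, at 1627.7 kb by 1.62 (SE 0.15) and at 1651.1 kb by 0.57 (SE 0.13), while the 2 peaks before them, at 1281.2 and 1560.6 kb, had 0.25 and 0.17 and did not pass the test.

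The desert between RNF144A and ID2, which encodes an inhibitor of E-protein transcription factors, held 32 peaks at chr2:7394104-8428838, 24 of them in lncRNA genes and most of those in LINC00299. Here 23 fell and 2 rose. The summed level was 404.0, 413.0 and 427.0 CPM in GFP high and 266.0, 322.0 and 317.0 CPM in GFP low cells, without overlap. At chr2:8298738-8299238 in LINC00299 values were 13.0, 12 and 13.6 against 3.15, 4.55 and 5.40 CPM, a log2 change of -1.57 (SE 0.15). That peak lay 1222.6 kb from RNF144A, and not every peak of the same gene fell. At 1227.3 kb the values were 26.2, 28.6 and 27.2 against 24.7, 29.3 and 26.9 CPM, which overlap at a log2 change of -0.02 (adjusted p 0.870). A peak at 1153.4 kb rose, with 20.6, 24.5 and 25.7 against 26.5, 30.3 and 28.2 CPM (log2 change 0.27, SE 0.10, adjusted p 0.0378).

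The desert with the highest share of falls lay between CYRIA, whose product binds RAC1, and RAD51AP2. In it 12 of 13 peaks fell, none of them in a lncRNA gene, and the median log2 change was -1.02. The summed level was 119.0, 108.0 and 103.0 CPM in GFP high and 55.1, 69.0 and 59.7 CPM in GFP low cells, a ratio of 0.559 over the times. At chr2:17166449-17166949 values were 17.2, 15.2 and 15.9 against 4.39, 5.30 and 6.28 CPM, a log2 change of -1.60 (SE 0.13, edgeR adjusted p 2.82e-08). The 1 peak that did not fall, 505.8 kb from CYRIA, had 13.4, 12.3 and 12.2 against 13.0, 13.8 and 13.7 CPM.

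**Figure D5:**
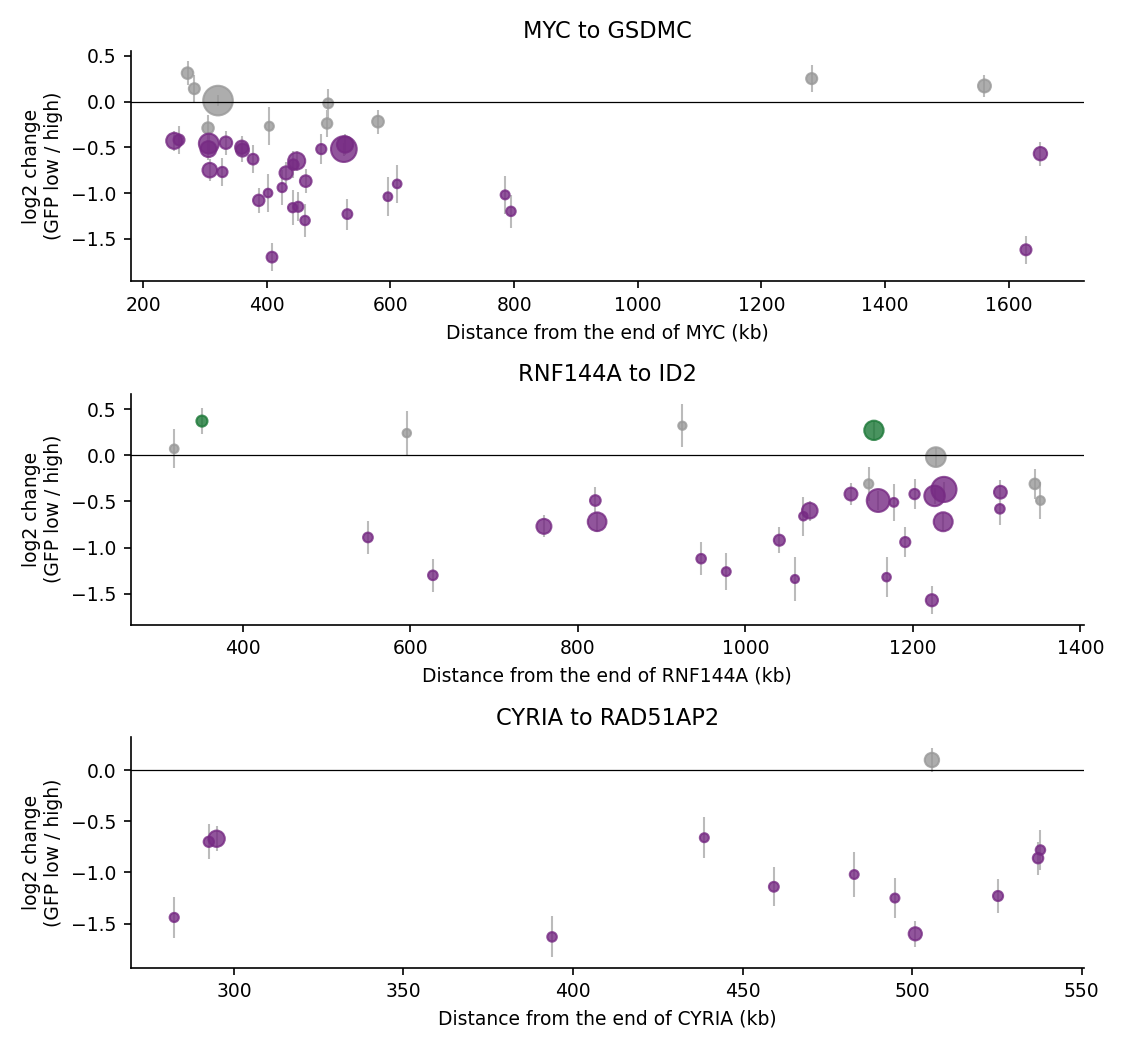
log2 change (GFP low over GFP high) with its standard error for each peak of 3 deserts, against distance in kb from the end of the first flanking gene; purple peaks were called lower, green higher and grey neither, and point area grows with CPM. Peaks at or above 0 sit within runs of falling ones, such as the large grey PVT1 peak at 321.2 kb from MYC with a log2 change of 0.01.

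Among other deserts with many falls were TBL1XR1 to KCNMB2 (8 of 12), RAP2B to ARHGEF26 (11 of 17), ZNF608 to GRAMD2B (9 of 15) and TRIML1 to FRG1 (12 of 20). TBL1XR1 encodes a subunit of the NCoR corepressor complex. Other deserts had few or no falls. Between PTPRU and MATN1, 0 of 10 peaks fell and 2 rose, and the summed level was 41.0, 37.3 and 42.8 CPM against 47.2, 50.8 and 49.4 CPM, higher in every GFP low library. Between ZNF254 and UQCRFS1 on chromosome 19, 0 of 16 fell and 5 rose. Between KCNV1 and CSMD3, 1 of 25 fell and 4 rose. Between USP25 and CXADR, where 30 of 36 peaks lay in lncRNA genes, 5 fell and 4 rose, and the sums of 248.0, 243.0 and 238.0 CPM overlapped those of 255.0, 251.0 and 234.0 CPM.

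The genes that flank deserts were grouped by 3 lists, chosen with earlier results of these data known and described here without a test. B-cell regulators flanked 16 deserts through 15 of the 52 listed genes. Of their 218 peaks 118 fell (54.1%) and 13 rose (5.96%), with a median log2 change of -0.42, beside 34.5%, 7.60% and -0.10 over all desert peaks. Their median level was 6.35 CPM, against 5.10 CPM over all desert peaks, and the part of level in this was not tested. The deserts next to MYC and ID2 gave 31 and 23 of the 118. In the largest desert, between the zinc-finger repressor gene ZEB2 and ACVR2A, 24 of 51 fell and 1 rose. That rise, with a log2 change of 0.67, was lost by DESeq2 (adjusted p 0.155), without the 24 h pair (0.0538), without the 72 h pair (0.495) and without the columns numbered V0 or V2 (0.131 and 0.179). Of the other B-cell regulators, EBF1, a factor that sets the B-cell programme, had 6 falls among 11 peaks next to it. In the same way 7 of 17 fell between PSAT1 and TLE4, 4 of 7 next to the chemokine receptor gene CXCR4 and 4 of 9 next to MEF2C. Next to ETS1, 4 of 16 peaks fell and 5 rose.

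Single peaks of these deserts fell deeply. At chr9:79026188-79026688, 545.5 kb before TLE4, values were 29.4, 26.3 and 22.2 CPM against 9.80, 11.2 and 7.78 CPM, a log2 change of -1.44 (SE 0.12, edgeR adjusted p 2.09e-08). Next to EBF1, 259.1 kb away at chr5:158436594-158437094, they were 14.2, 13.6 and 12.6 against 5.30, 5.37 and 4.38 CPM, a log2 change of -1.42 (SE 0.13). The groups did not overlap at either peak.

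Developmental transcription factors flanked 39 deserts with 267 peaks, of which 106 fell (39.7%) and 12 rose (4.49%). Synaptic and cell adhesion genes, typical neighbours of deserts, flanked 97 with 1178 peaks, of which 393 fell (33.4%) and 101 rose (8.57%). In deserts with no listed gene 789 of 2395 fell (32.9%). Some deserts count under more than 1 list. Of the adhesion group, a strong peak between CADM1 and BUD13 at chr11:116343123-116343623 had 53.9, 64.5 and 64.1 against 24.0, 39.0 and 37.2 CPM, a log2 change of -0.89 (SE 0.08). A peak near CTNND2, which encodes a delta-catenin, at chr5:13411968-13412468 had 9.55, 6.58 and 10.1 against 2.96, 2.24 and 3.53 CPM, a log2 change of -1.58 (SE 0.15). Neither pair of groups overlapped.

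The 2-fold differences were most numerous at 24 h when the D numbers of the column headers are read as time. With 1 library per GFP level and time there is no test, and peaks were counted past a 2-fold difference. At 24 h 627 desert peaks (15.6%) were at least 2-fold lower in GFP low cells, against 8.16% of all peaks and 10.4% of other intergenic peaks, and 5 were higher (0.212% of all peaks). At 48 h 194 were lower (4.83%, against 3.85% of all and 4.89% of other intergenic peaks) and 25 higher (0.226% of all). At 72 h 254 were lower (6.33%, against 3.83% and 5.04%) and 4 higher (0.0911% of all). The median desert log2 ratios at the 3 times were -0.25, 0.00 and -0.13. Of 741 peaks past 2-fold lower at any time, 86 were so at all 3 times, 393 at 24 h alone, 28 at 48 h alone and 72 at 72 h alone. With the V numbers read as time instead, the lower counts were 308, 319 and 298 (4.66%, 4.84% and 4.59% of all peaks), and 24 h no longer led. Each library of that reading sums columns of all 3 D numbers. Columns of a group differ by a near-constant multiple of counting noise, so near-equal counts follow and cannot check the lead of 24 h. At any size, 1686 desert peaks were lower at all 3 times and 921 higher. The same count was not made over all peaks, so it is not shown whether these numbers are particular to deserts.

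At some desert peaks the GFP low to high ratio moved between 24 and 72 h. It was higher at 72 h by at least 1 log2 unit at 108 desert peaks (2.69%, against 1.09% of all peaks) and lower by that much at 20 (0.498%, against 0.595%). Between GRIK2, a glutamate receptor gene, and HACE1, the peak at chr6:103101183-103101683 had 4.26, 5.59 and 3.62 CPM in GFP high cells and 0.695, 2.24 and 2.48 CPM in GFP low cells. The log2 ratio went from -2.49 (95% counting interval -3.43 to -1.56) at 24 h to -0.53 (-1.13 to 0.06) at 72 h. Between GOT2 and CDH8, a cadherin gene, the peak at chr16:60682107-60682607 had 5.76, 6.14 and 7.47 against 1.28, 2.67 and 4.35 CPM. These intervals cover counting error only.

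Between 24 and 48 h, desert peaks lost counts in GFP high and gained them in GFP low cells more often than the reverse. In GFP high cells 37 desert peaks dropped at least 2-fold (0.922%, against 0.317% of all peaks) and 0 gained that much (0.0266% of all). In GFP low cells 39 gained at least 2-fold (0.972%, against 0.344%) and 7 dropped (0.174%, against 0.209%). The median desert log2 ratio of 48 over 24 h was -0.11 in GFP high and 0.13 in GFP low cells. From 48 to 72 h the GFP low cells went the other way, with 30 desert peaks at least 2-fold lower (0.748%, against 0.324% of all peaks), 10 higher (0.249%, against 0.14%) and a median of -0.13. Over 24 to 72 h, 52 were lower (1.30%, against 1.09%) and 50 higher (1.25%, against 0.632%) in GFP low cells, with a median of 0.00. A peak between OSTF1 and PCSK5 at chr9:75438603-75439103 had 8.64, 5.19 and 2.93 CPM in GFP high cells at the 3 times, and 3.58, 3.8 and 2.21 CPM in GFP low cells.

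The most remote desert peaks lay in pericentromeric sequence. On chromosome 1 the peak at chr1:125179882-125180382, 3608.2 kb from the nearest RefSeq gene of any kind, had 64.8, 36.6 and 60.3 CPM in GFP high and 26.8, 26.2 and 39.1 CPM in GFP low cells. The groups overlapped through the 48 h GFP high library, at a log2 change of -0.79 (SE 0.11, edgeR adjusted p 4.12e-06). Of 3 remote peaks on chromosome 22, 4840.8, 3554.0 and 2834.5 kb before OR11H1, an olfactory receptor gene, the log2 changes were 0.00, 0.39 and -1.0. The rise was lost by DESeq2 (adjusted p 0.161) and in each of the 3 fits that left out the columns of 1 V number (0.0616 to 0.105) or the 24 h or 72 h pair (0.0522 and 0.259), and the fall without the 24 h pair (0.0875). Such sequence is rich in repeats, where reads can be assigned to more than 1 place, so these 4 values are uncertain.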

How the data were processed

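Omni-ATAC-seq was measured in 18 Raji samples. The authors deposited 1 table of whole-number read counts per peak of 501 bp, not normalised, on hg38. FastQC, BWA, deepTools and R 4.2.1 are named in the submitters' processing notes; the sources used here do not give the peak caller, how duplicates were handled or whether cut sites were shifted. These steps could change the counts, above all at repeats. Column headers were matched to a GFP level and time (D1, D2 and D3 read as 24, 48 and 72 h), not to replicate numbers, and the 3 columns of a group were summed because they differed by a near-constant multiple of counting noise (median 1.798). Columns that share a header number did not deviate together (r -0.0028 to 0.0132). Nothing says that replicates came from separate cultures, and p-values measure the spread between these libraries.

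Peak centres were placed against protein-coding spans of a RefSeq GRCh38 table, and gene-end means within 1 kb of an end. The table seems to place some genes of alternate scaffolds on a chromosome (GSTT1 near the start of chromosome 22), which could shift the edge of some deserts. Counts were fitted in edgeR 4.0.16 (R 4.3.3; TMM, robust quasi-likelihood, GFP level plus time, 2 residual degrees of freedom) over all 71318 peaks, and p-values were adjusted by Benjamini-Hochberg, with calls at 0.05. The fitted biological variation was 9.48% (coefficient of variation). The test also borrowed a median of 22.6 prior degrees of freedom from the other peaks. In data simulated for this comparison over 71318 peaks, the fit called 98 of 100 peaks changed 2-fold, 67 of 100 changed 1.5-fold and 7 of 71118 unchanged ones. The simulation had few changed peaks, 1 fixed dispersion and no shift with abundance, whereas 38.8% of the real peaks were called. It therefore does not give the error rate in the real data. CPM use TMM-scaled totals, and single-time log2 ratios a prior count of 2. Alternatives were DESeq2 1.42.0, loess offsets, library totals, filters, the 18 columns with and without a replicate block, libraries left out, V numbers read as time (for single peaks, chosen after seeing the data) and stricter member rules. Leaving out a replicate means leaving out the columns of 1 V number (V0 to V2).

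Named peaks were the 8 largest falls and 8 largest rises over times (1 sign at all times, mean count of at least 60), the 6 most abundant, the 4 most remote, the strongest and the smallest p in each of the 7 largest deserts (6 by the rule, with a tie in the last place), the 3 extremes each way at each time, the 3 largest changes each way from 24 to 72 h at each GFP level and the 4 largest of the contrast, and up to 3 with the smallest p per flanking gene list. Other peaks of the 3 mapped deserts, and those at gene starts, were named after their values were seen. The members and lists were chosen with earlier results of these data known. No genome sequence was used here, so desert sequence is limited to RefSeq start windows, those of chromosome 8 left out.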

Additional observations from a re-analysis of the deposited data

How the results depend on the processing

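The count of lower desert peaks stayed within 1.5 times 1385 under every change of scaling or library: 984 by DESeq2, 1148 with loess offsets, 1567 with the 18 columns as libraries, 1068 to 1350 leaving out a time pair and 1183 to 1230 leaving out a replicate (the columns of 1 V number). The filters removed no desert peak and left the count at 1385, so they check nothing here. Columns of a group differ by a near-constant multiple of counting noise. Leaving out a V number or fitting the 18 columns is therefore no check on separate replicates. The count was 626 of the peaks over 500 kb away (33.7%) and 39 of those over 250 kb from genes of any biotype (34.8%). The count of higher desert peaks, 305, was less stable. It was 62 by DESeq2, 617 with loess offsets, 691 with the 18 columns and 653 with V numbers read as time. Leaving out a time pair gave 107 to 433, and leaving out a replicate 208 to 250. As shares these were 1.54%, 15.4%, 17.2%, 16.3%, 2.67% to 10.8% and 5.18% to 6.23% of desert peaks. The share over all peaks moved too, in the same order 5.22%, 13.2%, 27.0%, 25.9%, 3.51% to 13.0% and 10.9% to 11.7%. The count was 149 over 500 kb away (8.02%) and 8 for any biotype (7.14%), against 13.4% of all peaks. The replicate block, fitted on 18 columns by header number, gave 1532 lower (38.2%, against 28.7% of all peaks) and 645 higher (16.1%, against 25.5%). Since the header numbers do not pair the samples, this says nothing of pairing. The causes were not tested.

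At single times, reading V numbers as time gave 308 lower and 12 higher at 24 h, 319 lower and 7 higher at 48 h, and 298 lower at 72 h. The lower shares were 7.68%, 7.95% and 7.43% of desert and 4.66%, 4.84% and 4.59% of all peaks. The higher shares at 24 and 48 h were 0.299% and 0.174% of desert and 0.139% and 0.118% of all peaks. Loess offsets gave 30, 44 and 31 higher at the 3 times (0.925%, 0.457% and 0.349% of all peaks). They gave 166 lower at 72 h (4.14%, against 2.45% of all peaks). Leaving out a replicate gave 10 to 22 higher at 24 h, then 39 to 60 and 18 to 24, with fewer counts per library. Of all peaks 0.426% to 0.592%, 0.419% to 0.597% and 0.237% to 0.285% were higher there. Loess offsets also turned the signs of 3 strong peaks: NPVF to NFE2L3 (-0.01), PVT1 (-0.18) and TENM4 to FAM181B (-0.22). Of 48 named peaks past the threshold, 32 kept their verdict in every setting. The 2 residual degrees of freedom, 1 library per GFP level and time, and a median of 138 counts per peak and library limit what can be seen.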
